A study of Mus musculus with 24 samples.

Results

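The late chase in cells without the terminal uridylyltransferases TUT4 and TUT7 was described from 6 of the 24 libraries of the series: the cDKO libraries titled 180min and 540min, with 3 replicates at each time. The cells were mouse Meis1/Hoxa9 preleukemic cells, that is, c-Kit+ fetal liver cells of E14.5 embryos on the C57BL/6 background that had been transduced with retroviruses carrying Meis1 and Hoxa9 and replated in culture. The cDKO cells carried floxed Tut4 and floxed Tut7 alleles with Vav-iCre, which is active in the blood lineage, and the control cells of the other 12 libraries came from littermates with the same floxed alleles and no Cre and carried the same viruses. All cells were grown in medium with stem cell factor, IL-6 and IL-3, were labelled with 4-thiouridine (4SU) for 12 h, and were then moved to medium free of 4SU and collected after 0, 60, 180 or 540 min. The cells are a bulk culture transformed by retroviral genes. In a bulk sample, fewer cells of a type and less RNA per cell cannot be told apart in any value below. Each library's label names its chase time as its batch, so a difference between the libraries of 180 and 540 min cannot be told apart from a difference between those batches.

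In SLAM-seq, 4SU enters new RNA in place of uridine and, after alkylation, is read as a T-to-C change. The conversion rate of a gene, which is the number of conversions per covered T position, therefore reports how much of its RNA was made during labelling. In a chase the old labelled molecules decay while new unlabelled ones are added, so the rate of a gene falls as its RNA turns over, and RNA with a long life keeps its label. TUT4 and TUT7 add uridines to the 3′ ends of RNA, which is known to mark messenger RNA with short poly(A) tails for decay. Messenger RNAs of ribosomal proteins and of the respiratory chain are generally long-lived, and those of immediate early transcription factors are generally short-lived. Libraries were made by 3′-end sequencing, and reads were assigned to 3′UTR intervals of the mm10 build, so a value for a gene covers its annotated 3′UTRs only.

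The 6 libraries held between 4915696 and 5712053 reads in 3′UTR intervals, which was 47.4% of the filtered reads on average at 180 min and 49.5% at 540 min (exact permutation test, two-sided p = 0.1, the smallest p that 3 libraries against 3 allow). Reads of the targeted genes were lower in cDKO cells but not absent. Read abundance is given throughout in CPM, scaled by the library's total of reads in 3′UTR intervals. Tut4 (chr4:108558786-108559415, plus strand) lay between 17.8 and 40.0 CPM in the 12 cDKO libraries and between 68.1 and 105 CPM in the 12 control libraries. Tut7 lay between 16.7 and 33.3 CPM against 34.6 and 66.1 CPM. Neither gene overlapped between genotypes, and because the reads are of the 3′ end and the deleted exons are not given in the sources used here, these levels do not measure the deletion itself. All 10 markers of myeloid progenitors reached 1 CPM in the 6 libraries, and all 5 lymphoid markers were at 0. The progenitor markers summed to between 4018 and 5037 CPM at 180 min and between 4368 and 5368 CPM at 540 min. Of the transforming genes, Hoxa9 stood at 4046 CPM and Meis1 at 2.84 CPM on average at 180 min. The 3′ ends of the viral copies are not given in the sources used here. These reads of annotated 3′UTRs therefore do not measure expression of the viral genes.

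Most of the label left between 3 and 9 h of chase. The conversion rate over all 3′UTR reads was 0.550, 0.569 and 0.386% in replicates 1 to 3 at 180 min and 0.190, 0.209 and 0.162% at 540 min. Every library of 540 min lay below every library of 180 min, and replicate 3 was the lowest at both times. The mean fell from 0.502 ± 0.101% to 0.187 ± 0.024% (SD, n = 3), a 2.68-fold fall that left 37.3% of the rate (exact permutation test, two-sided p = 0.1, the smallest possible). Replicates 1, 2 and 3 kept 34.5, 36.8 and 42.0% of their own rate. The control libraries went from 1.078 ± 0.036% to 0.314 ± 0.013% over the same 6 h and kept 29.2%. The share of reads with a conversion moved with the rate, from 10.0 to 4.06% in cDKO cells.

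**Figure D1:**
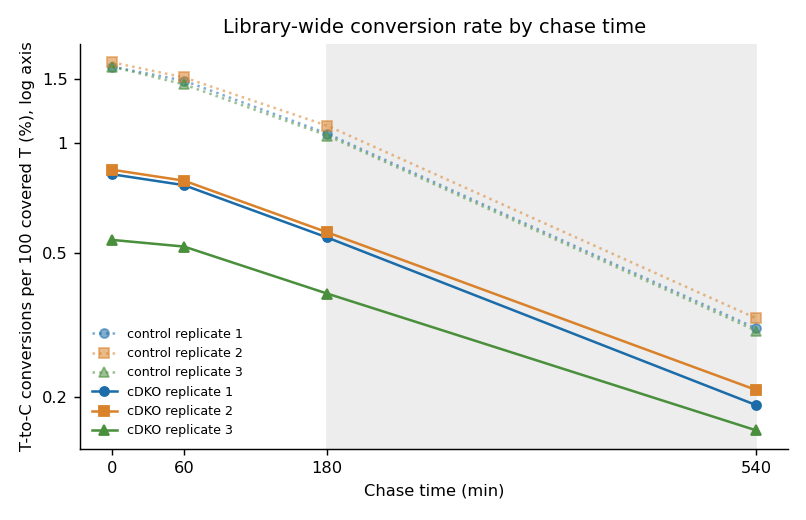
Conversion rate over all 3′UTR reads (percent of covered T positions read as C, log axis) against chase time in min, one line for each replicate, cDKO solid and control dotted, with the interval of 180 to 540 min shaded. The 3 cDKO libraries at 540 min sit between 0.162 and 0.209%, all below the 3 at 180 min, and cDKO replicate 3 starts lowest.

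A background level of the rate was estimated from genes that lose label early. In the 309 genes whose cDKO rate at 180 min was already at most 0.2 of the rate at 0 min, the 540 min rate was 0.0653 ± 0.0036% (SD, n = 3), and 1155 of the 5000 genes tested for label (23.1%) had a 540 min rate under that level. It is thus a pooled level and not a lower bound for single genes, and how much of it is remaining label was not tested. Where it is not label, losses that end there are lower limits of the loss of true label.

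Label could be tested in 5000 genes, those with at least 1000 covered T positions in each of the 6 libraries and at least 50 conversions at 180 min. The second condition is on the group where label is high, so genes with little label at 180 min are not described. In 4503 of the 5000 the rate fell (edgeR's quasi-likelihood test on conversions with the covered positions as offset, Benjamini-Hochberg adjusted p under 0.05, replicate number as a block), which is 90.1%. The fitted change was below 0 in all 3 pairs of same-numbered libraries for 4713 genes. The median gene changed by -2.02 on the log2 scale and kept 24.6% of its rate, less than the 37.3% of the library as a whole. The spread was wide: the gene at percentile 5 kept 7.92%, those at the quartiles 15.2 and 41.8%, and that at percentile 95 kept 75.7%. Read as simple exponential loss, the median corresponds to an apparent half-life of 178 min and the quartiles to 133 and 286 min, values that mix decay of old RNA with dilution by new RNA.

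To compare genes, each was also tested against the loss of its own libraries. By that measure 618 genes (12.4%) lost label more slowly than the library and 1744 (34.9%) faster, where the reference is the rate over all reads and thus weighted toward abundant RNA. With the median gene as reference the split turned, to 1344 slower and 553 faster, so below only groups whose order held under both references are called slow or fast without comment. Annotation went with label as a description only: across the 5000 genes, log10 3′UTR length and the log2 label change had a Spearman rho of -0.17, log10 CPM one of 0.16, and the log2 change in abundance one of 0.02 (genes are not independent replicates). Among the 1250 genes with the shortest 3′UTRs, 19 to 423 bases, the median gene kept 32.6% of its rate and 314 were slower than the library. Among the 1250 with the longest, from 2076 bases, the median was 23.4% and 65 were slower.

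**Figure D2:**
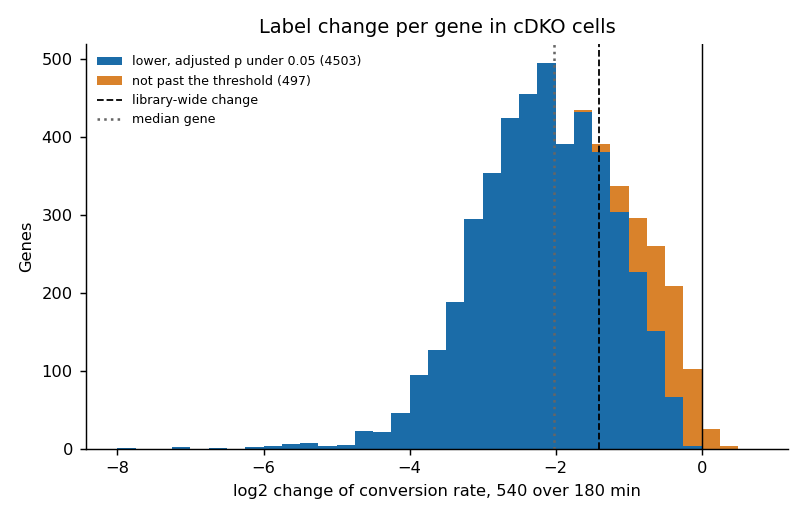
Histogram of the fitted log2 change in conversion rate, 540 over 180 min, for 5000 genes in cDKO cells, with genes called lower and genes not called in separate colours and vertical lines at the library-wide change and at the median gene. The median line, at -2.02, lies to the left of the library-wide line, and the 497 genes not called gather at the right end.

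Ribosomal protein genes kept much of their conversion rate. Of 67 tested, 61 were slower than the library and 1 faster, against backgrounds of 12.4 and 34.9%, and their median log2 change of -0.41 left 75.1% of the rate (65 slower and 1 faster with the median gene as reference). The rate was not called lower at all in 34 of them. Rplp1, an acidic stalk protein of the large subunit (chr9:61913283-61913323, minus strand), read 1.09, 1.04 and 0.919% at 180 min and 1.04, 1.12 and 0.912% at 540 min. The libraries of both times overlapped and the fitted change was near 0 (log2 0.01, 95% interval -0.10 to 0.12). Rpl14, another large-subunit protein (chr9:120574395-120574653, plus strand), had a rate several times that of its peers, 2.66, 2.64 and 2.59% at 180 min and 3.02, 2.74 and 2.66% at 540 min (log2 0.09, 95% interval -0.04 to 0.23). At 0 min the cDKO mean was 0.918 ± 0.135% for Rplp1 and 2.44 ± 0.429% for Rpl14, no higher than at 540 min. The library-wide cDKO rate at 0 min was 0.821, 0.845 and 0.542% in replicates 1 to 3. Every library was labelled, so whether rates as steady as those of Rplp1 and Rpl14 are all 4SU label was not tested. Rps14, of the small subunit, fell a little, reading 0.422, 0.433 and 0.254% at 180 min and 0.31, 0.351 and 0.206% at 540 min and keeping 78.4%. The exception in the list was Rpl7l1, a factor of ribosome assembly, which fell with log2 -3.33, 95% interval -4.14 to -2.52. Abundance of the list hardly moved: of 79 tested, 2 rose (2.53%) and 5 fell (6.33%), beside 8.5 and 8.21% of all genes, and the median was 0.01. These abundance calls rest on single replicates, as 8 rose without replicate 1 and 1 fell without replicate 2 or 3.

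Ribosomal protein messages are known for a terminal oligopyrimidine (TOP) tract, a C followed by a run of pyrimidines at the 5′ end, through which growth signalling regulates their translation. The start windows of 5 members whose label was slow are shown so that the tract can be seen beside the values (RefSeq, GRCm38.p6, 5′ to 3′ on the gene's strand, capitals mark the pyrimidine run found by the search, which took a C and at least 4 further pyrimidines beginning within 5 bases of the annotated start).
Rpl14, chr9:120571505-120571534, plus strand: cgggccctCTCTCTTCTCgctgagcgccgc
Rps21, chr2:180257367-180257396, plus strand: cgaggacccgCCCTCCTgcccaatagtgct
Rplp2, chr7:141447639-141447668, plus strand: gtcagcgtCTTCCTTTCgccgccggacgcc
Rps6, chr4:86857350-86857379, minus strand: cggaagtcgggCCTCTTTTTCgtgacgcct
Rpl38, chr11:114668568-114668597, plus strand: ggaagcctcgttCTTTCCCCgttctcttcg
Such a run was found in 25 of the 52 ribosomal protein genes with a window (48.1%), in 18 of 65 genes of oxidative phosphorylation (27.7%), in 977 of 4061 genes tested for label (24.1%) and in 5718 of all 27025 promoters (21.2%). These 5 kept 107, 100.1, 97.5, 86.3 and 86.2% of their rate in the order shown.

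Nuclear genes of oxidative phosphorylation came next. Of 77 tested, 46 were slower than the library and 1 faster (69 and 0 with the median gene as reference, and 0 faster without replicate 1 or 2), with a median log2 change of -0.72 and 60.6% kept. Ndufa1, a small subunit of complex I (chrX:37187588-37187720, minus strand), read 0.355, 0.354 and 0.542% at 180 min and 0.478, 0.618 and 0.493% at 540 min (log2 0.35, 95% interval -0.12 to 0.81). The gene that went the other way was Sdhd, the membrane anchor of succinate dehydrogenase, with log2 -2.72, 95% interval -3.69 to -1.75.

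In a list of granule and other genes of myeloid precursors, 5 of 6 tested were slower than the library: the granule proteases Ctsg, Prtn3 and Elane with Igfbp4 and Ly6c2. Ctsg, the serine protease cathepsin G (chr14:56099885-56099958, minus strand), read 0.698, 0.667 and 0.359% at 180 min and 0.433, 0.41 and 0.255% at 540 min and kept 64.5%. Its groups overlapped because replicate 3 was low at both times, while within each pair the rate fell. Prtn3, proteinase 3, kept 61.5%, Elane, neutrophil elastase, kept 95.3%, and Ly6c2, a surface protein of monocytes and their precursors, kept 80.4%. Ms4a3, a marker of granulocyte and monocyte progenitors, was faster than the library (0.721, 0.711 and 0.52% at 180 min and 0.172, 0.179 and 0.164% at 540 min, log2 -1.91, 95% interval -2.17 to -1.65), but not than the median gene (log2 0.22 relative to it). The share kept was also high in some genes better known for short-lived RNA: Junb, an AP-1 subunit, kept 91.8%, Cish, a feedback inhibitor of cytokine signalling, 86.1%, and Cxcr4, the receptor for the chemokine CXCL12, 84.5%. That share compares 540 with 180 min only. Label lost before 180 min does not enter it, and a rate already near the background level at 180 min has little left to lose. In the list of cytokine feedback genes 4 of 7 were slower and 0 faster, with a median of 72.8% kept. The median log2 change relative to the library, 0.95 there, was 0.38 over 9 genes with all lines of a gene summed and turned to -0.45 over 11 genes at a minimum of 100 covered T positions.

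Chaperones went both ways. Of 14 tested, 5 were slower than the library and 5 faster (35.7% each), beside 12.4 and 34.9% of all genes, so the share of faster genes was near that of all genes. The slower ones were Hsp90ab1, the constitutive cytosolic HSP90, which kept 60.3%, and Hsp90b1, Calr, Canx and Pdia3 of the endoplasmic reticulum, of which Calr kept 58.7%. The faster ones were Hspa8, Hspa9, Hspd1, Dnaja1 and Hspa5. Hspa8 kept 11.1% and Dnaja1, a DNAJ partner of HSP70, kept 10.3%. Hspa5, the HSP70 of the endoplasmic reticulum, kept 28.5% and was slower, not faster, against the median gene (log2 0.32).

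Genes of cell division lost label fast. All 26 tested genes of mitosis and G2/M fell, and the median of the list kept 15.2%. Of the 26, 17 (65.4%) were faster than the library and 0 slower, beside 34.9 and 12.4% of all genes. With the median gene as reference 9 were faster and 4 slower. Top2a, topoisomerase II alpha, read 0.574, 0.612 and 0.368% at 180 min and 0.0377, 0.0509 and 0.035% at 540 min and kept 8.04% (log2 -3.64 ± 0.21 SE, adjusted p = 2.06e-15). The libraries of both times did not overlap. Cdk1, the mitotic kinase, kept 10.3%, Birc5, survivin, 14.3%, and Hmmr, a spindle protein, 5.44%. Genes of DNA replication lay nearer the middle, with 7 of 17 faster than the library and a median of 25.5% kept. That share, 41.2%, was near the 34.9% of all genes. With the median gene as reference 2 of the 17 were faster and 2 slower. Of the replicative helicase, Mcm3 kept 11.2%, Mcm2 22.3% and Mcm6 26%, and the order of Mcm6 relative to the reference turned with the median gene (log2 0.21).

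Of 22 tested genes of the machinery of mRNA decay and uridylation, 0 were slower and 10 faster than the library, beside 12.4 and 34.9% of all genes, and the median kept 19.8%. With the median gene as reference 0 were slower and 2 faster, a share near that over all genes (553 of 5000 faster). Lsm1, of a protein ring that acts in mRNA decay, kept 5.18%, Exosc10, a nuclease of the nuclear exosome, 8.77%, Cnot1, the scaffold of the main deadenylase, 10.9%, and Upf1, the helicase of nonsense-mediated decay, 15.9%. In reads, 0 rose and 3 fell of 35 (8.57%, near the 8.21% of all genes): Tut4, Tent2, a poly(A) polymerase outside the nucleus, and Dcp1b, a decapping cofactor. Tut4 read 35.6, 33.6 and 34.6 CPM at 180 min and 26.4, 27.3 and 21.2 CPM at 540 min (log2 -0.50 ± 0.15 SE, adjusted p = 0.0142), and Tut7 26.4, 26.2 and 33.3 CPM at 180 min and 23.7, 19.8 and 21.2 CPM at 540 min (log2 -0.43 ± 0.16 SE, adjusted p = 0.0551). Without replicate 1 the list had 7 falls, and without replicate 3 Tut4 did not pass (adjusted p = 0.163).

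The deepest losses ended at or near a count of 0. Smarcd1, a subunit of the SWI/SNF remodelling complex, went from 104 conversions over the 3 libraries of 180 min to 0 at 540 min, which at a floor of 3 counts over the group is at least 27.5-fold lower. Gtf3c3, of the RNA polymerase III factor TFIIIC, went from 53 to 0 (at least 21.0-fold) and Prune1 from 50 to 0 (at least 17.4-fold). Tipin, a protein of the replication fork (chr9:64304471-64305422, plus strand), had the most counts among the 10 and went from 301 conversions in 61069 covered T positions to 5 in 64372, a ratio of 63.5 (95% interval 26.9 to 197, counting error only). Rnf126, a ubiquitin ligase, went from 138 to 1 and Llph from 166 to 2, with ratios of 137 (24.1 to 5431) and 78.9 (21.5 to 657). The other 4 named by the same rule, Kif20a, Drosha, Nemf and Zfp326, each ended with 1 conversion from between 53 and 85. Such genes lie below the background level of 0.0653% described above, which pools the conversions and covered T positions of many genes in each library. Reads were PCR-amplified without molecular identifiers, so counts are not independent molecules.

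**Figure D3:**
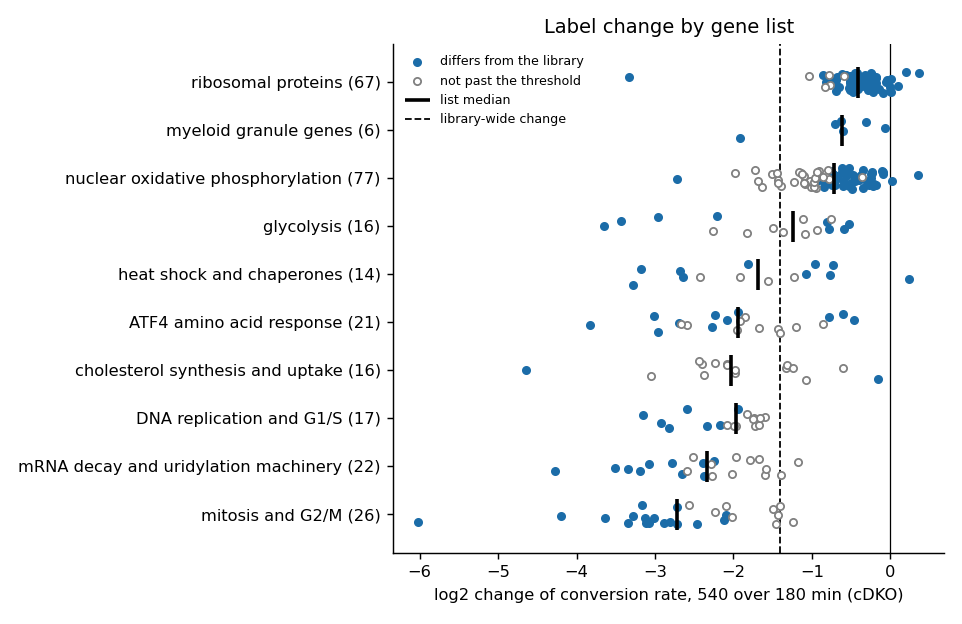
Fitted log2 change in conversion rate, 540 over 180 min, for each tested gene of 10 gene lists (points) with the list median (bar) and the library-wide change (line) in cDKO cells. Ribosomal protein, oxidative phosphorylation and myeloid granule list genes lie mostly above the line, with 75.1, 60.6 and 65.2% of the rate kept at the median, and mitosis genes mostly below it, with 15.2% kept.

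The conversion rate did not fall at all in a small set. The fitted change was 0 or more in 29 of 5000 genes, which are 23 by distinct counts. Among them are 8 members of the Ugt1a family, UDP-glucuronosyltransferases, and all of these but Ugt1a6b have the same counts and cannot be told apart. None of the 29 was called, and in 13 the change was not below 0 in any of the 3 pairs. They were chosen by the same fit, so the values are a description. The set depends on single replicates: 63 genes had no fitted loss without replicate 1 (26 of them among the 29), 38 without replicate 2 (19 shared) and 33 without replicate 3 (23 shared). By size they were Rpl10a, Ndufa1, 5730408K05Rik, the Ugt1a genes, Pdia3, Eea1, Rpl36a, Pura, Csn2, Ppt1, Bcl7c, Ten1 and Rpl14, and then, closest to 0 and named after their values were seen, Cd52, Chmp2a, Rprd2, Traip, Ndufb7, Rplp1, Rps27rt, Eef1b2 and Rps21.

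Pdia3, a protein disulfide isomerase of the endoplasmic reticulum (chr2:121437700-121438687, plus strand), read 0.426, 0.441 and 0.241% at 180 min and 0.467, 0.446 and 0.365% at 540 min (log2 0.23, 95% interval -0.25 to 0.72). Its groups overlapped, with only replicate 3 clearly higher at the later time. Pura, a binding protein of single-stranded nucleic acid, read 2.12, 1.38 and 2.21% at 180 min and 2.13, 2.05 and 2.3% at 540 min (log2 0.20, 95% interval -0.29 to 0.69) after 2.42 ± 0.148% at 0 min. Eea1, a tether of early endosomes, read 0.268, 0.536 and 0.281% at 180 min and 0.368, 0.352 and 0.5% at 540 min (log2 0.21, 95% interval -0.78 to 1.20), after 1.07 ± 0.267% at 0 min. The 3 libraries of 180 min were thus below the 0 min mean, and those of 540 min overlapped them. Rpl10a went from 0.303, 0.299 and 0.166% to 0.338, 0.327 and 0.315% without passing the test, but 99.6% of its reads mapped to more than one place and its 3′UTR has 7 T positions. 5730408K05Rik, a gene with no assigned name, read 0.514, 1.78 and 0.369% at 180 min and 0.317, 1.5 and 1.58% at 540 min, so that its replicates differed by more than its times. Ugt1a6b read 0.255, 0.359 and 0.345% at 180 min and 0.311, 0.411 and 0.424% at 540 min, and control cells kept 21.9% of its rate. Over the 29 genes the median rate was 0.634% at 0 min, 0.429% at 180 min and 0.532% at 540 min.

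Their T content varied widely. Of the 29, 12 (41.4%) had at most 50 T positions, against 460 of all 5000 (9.2%), while Eea1 had 1129, Rprd2 1187 and 7 of the Ugt1a genes 481, and the median was 150 against 306.5. In the control libraries, which the choice did not use, their median share of rate kept was 68.4%, against 16.5% over all genes. A wider set of 285 genes was not called lower and at the same time slower than the library. It held 32 ribosomal protein and 21 oxidative phosphorylation genes, kept 61.4% at the median in control cells, and had a median of 115 T positions. The other 212 of the 497 genes not called were not called different from the library-wide loss, and a missed call there does not show that label stayed: the median number of conversions at 180 min was 86 over the 497, 148 over the 285 and 148 over the genes called.

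**Figure D4:**
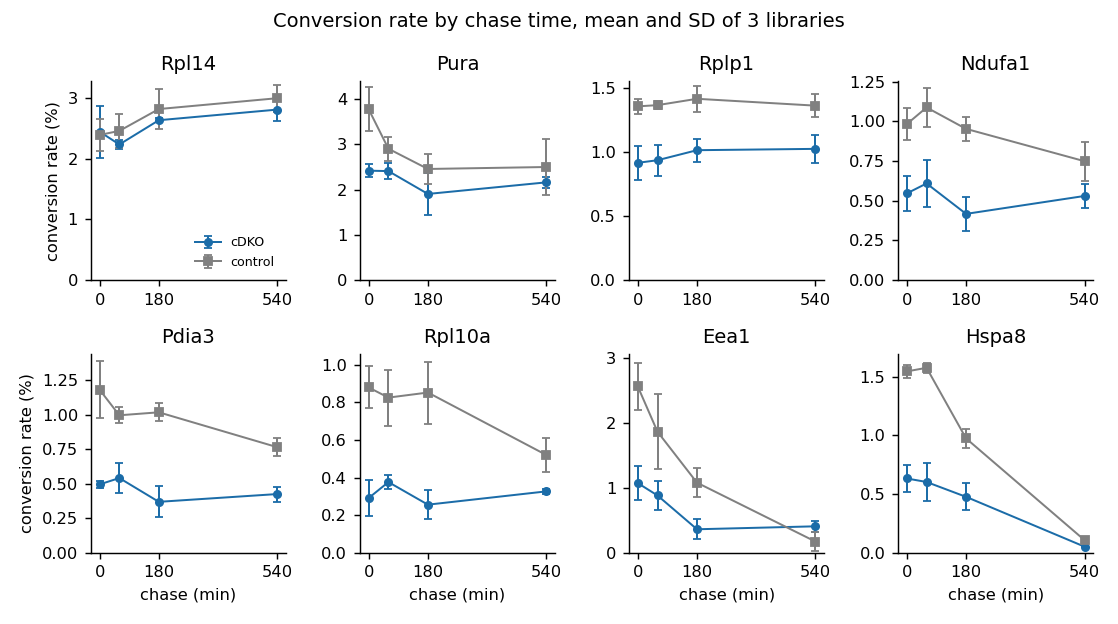
Conversion rate (percent of covered T positions) against chase time in min for 8 genes, mean ± SD of 3 libraries, cDKO and control. Rpl14, Pura, Rplp1, Ndufa1, Pdia3 and Rpl10a show no called fall between 180 and 540 min in cDKO cells, nor does Eea1, whose mean drops before 180 min, while Hspa8, shown as a contrast, kept 11.1%.

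In read abundance, 866 of 10193 genes rose (8.5%) and 837 fell (8.21%) between 180 and 540 min (edgeR's quasi-likelihood test on reads, replicate number as a block), and 2928 had an unadjusted p under 0.05. The changes were small, with a median of 1.36-fold among the genes that rose and 1.30-fold among those that fell, and 47 in each direction reached 2-fold. Without the block 6 genes rose and 5 fell: Chek2, Chordc1, Hspa8, Nxpe3, Tbc1d9b and Tra2a, and Cirbp, Ddx6, Hnrnpdl, Idi1 and Ski. Leaving out replicate 2 left 427 higher and 419 lower, leaving out replicate 3 left 487 and 501, and leaving out replicate 1 left 659 and 742. Of the list members described next, Hspa8 and Idi1 were thus called without the block. The names of these 11 genes were chosen after their values were seen.

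Hspa8 and Cirbp, genes known to respond to heat and cold, had the smallest adjusted p of all genes. Hspa8, the constitutive HSP70 chaperone of the cytosol (chr9:40805118-40805199, plus strand), read 453, 471 and 384 CPM at 180 min and 911, 1008 and 831 CPM at 540 min. All libraries of 540 min lay above all of 180 min, a 2.07-fold rise (log2 1.05 ± 0.06 SE, adjusted p = 3.29e-21). At 0 min it had stood at 595 ± 47.9 CPM (SD, n = 3), and 29.8% of its reads mapped to more than one place. Cirbp, the cold-inducible RNA-binding protein (chr10:80170999-80171653, plus strand), read 113, 117 and 114 CPM at 180 min and 32.7, 36.8 and 34.2 CPM at 540 min. Its groups were far apart, a 3.37-fold fall (log2 -1.75 ± 0.11 SE, adjusted p = 1.47e-20). Control cells moved the same way, Hspa8 from 373 ± 21.4 to 778 ± 1.95 CPM and Cirbp from 115 ± 4.82 to 33.5 ± 2.53 CPM.

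Over the 17 chaperones tested, 2 rose and 2 fell and the others did not pass. Each count was 11.8% of the list, near the 8.5 and 8.21% of all genes. With Hspa8 rose Hsph1, an HSP110 exchange factor, at 49.2, 60.8 and 59 CPM at 180 min and 84.7, 95.6 and 70.7 CPM at 540 min (log2 0.54 ± 0.11 SE, adjusted p = 0.000195), without overlap between times. Hsp90aa1 and the mitochondrial Hspa9 fell, by 0.30 and 0.18 on the log2 scale, a count of 2 falls that was 1 without replicate 2 and 0 without replicate 3. Chordc1, a cochaperone of HSP90 that was not in the list, read 92.2, 73.4 and 87.6 CPM at 180 min and 149.7, 190.1 and 171 CPM at 540 min (log2 0.98 ± 0.09 SE, adjusted p = 2.92e-12). Heat shock factor is known to bind repeats of GAA in alternating orientation, and the windows of the promoters of Hsph1 and Chordc1 that hold the searched heat shock element, GAA, TTC and GAA units with 2 free bases between them (either strand), are shown for that reason (RefSeq, GRCm38.p6, 5′ to 3′ on the gene's strand, motif in capitals).
Hsph1, chr5:149636287-149636315, minus strand: gtaaaatgctgcagaTTCTGGAAAGTTCt
Chordc1, chr9:18292248-18292290, plus strand: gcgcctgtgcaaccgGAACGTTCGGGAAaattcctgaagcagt
The motif was in 179 of 27025 promoters (0.662%), in 2 of the 12 other chaperones with a promoter window, and no binding was measured here.

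Several immediate early transcription factors fell. Of 27 tested, 1 rose (3.70%) and 7 fell (25.9%), beside 8.5 and 8.21% of all genes. The median log2 change was -0.20, beside 0.00 over all genes. Jun, the AP-1 subunit (chr4:95049036-95050266, minus strand), read 14.6, 3.66 and 15.8 CPM at 180 min and 2.17, 0.7 and 0.712 CPM at 540 min, a 9.37-fold fall without overlap (log2 -3.23 ± 0.42 SE, adjusted p = 7.15e-08). Earlier in the chase it had stood at 1.97 ± 2.47 CPM at 0 min and 11.2 ± 4.18 CPM at 60 min. Jund, another AP-1 subunit, read 139, 139 and 158 CPM at 180 min and 92.8, 97 and 83.7 CPM at 540 min (log2 -0.70 ± 0.09 SE, adjusted p = 3.61e-08). Klf6, a zinc finger factor, fell by 0.77 and Egr1 by 1.51 on the log2 scale, the latter with replicates between 0.814 and 10.9 CPM at 180 min, so that its groups overlapped. Ier3 went the other way and read 37.4, 34.6 and 36.3 CPM at 180 min and 65.9, 65.8 and 61.1 CPM at 540 min (log2 0.81 ± 0.12 SE, adjusted p = 7.2e-07). Of 18 cytokine feedback genes, 3 rose (16.7%) and 4 fell (22.2%). The kinases Pim1, Pim2 and Pim3 rose, and Cish, Socs1, Socs2 and the chemokine Ccl3 fell, though without replicate 2 or 3 the falls numbered 2. Without replicate 1 Egr1 did not pass (adjusted p = 0.165).

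In cholesterol synthesis some genes fell and none rose. Of 24 genes tested, 0 rose and 8 fell (33.3%, beside 8.21% of all genes), and the median was -0.26. There were 6 falls without replicate 1, 6 falls and 1 rise without replicate 2, and 10 falls without replicate 3. Without the block 1 gene of the list fell, and over the alternatives the adjusted p of Msmo1 reached 0.442. Idi1, isopentenyl diphosphate isomerase (chr13:8890636-8892396, plus strand), read 55.3, 62.6 and 50.2 CPM at 180 min and 27.6, 26.4 and 28.5 CPM at 540 min (log2 -1.05 ± 0.13 SE, adjusted p = 1.42e-08), without overlap, although 89.4% of its reads mapped to more than one place. Insig1, which holds the sterol sensor in the endoplasmic reticulum (chr5:28076821-28078662, plus strand), read 37.6, 35.8 and 34 CPM at 180 min and 18.6, 17.2 and 21.5 CPM at 540 min (log2 -0.93 ± 0.16 SE, adjusted p = 1.42e-05). Its label also went, from 141 conversions to 3. Hmgcs1, the HMG-CoA synthase, read 130.4, 148 and 79.5 CPM at 180 min and 76.2, 72.8 and 78.2 CPM at 540 min, where replicate 3 did not fall with the other two and the groups overlapped (log2 -0.65 ± 0.11 SE, adjusted p = 1.15e-05). Hsd17b7, Sc5d, Nsdhl, Cyp51 and Msmo1, further enzymes of the pathway, fell by between 0.41 and 0.76 on the log2 scale. Abcg1, an exporter of cholesterol, was the only gene of the efflux list to pass and rose from 32.1, 32.3 and 43 CPM to 55.2, 69.7 and 57 CPM (log2 0.73 ± 0.12 SE, adjusted p = 1.57e-05). That was 1 of 12 tested (8.33%), near the 8.5% of all genes.

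Genes of the ATF4 response, which provides amino acids and their transport under stress, gave a similar count. Of 30, 0 rose and 11 fell (36.7%, beside 8.21% of all genes), and the median was -0.15. Slc7a11, the cystine and glutamate exchanger (chr3:50364936-50372301, minus strand), read 29.5, 32.1 and 22 CPM at 180 min and 13.2, 11.2 and 6.95 CPM at 540 min (log2 -1.46 ± 0.19 SE, adjusted p = 7.47e-08). Mthfd2, of mitochondrial folate metabolism (chr6:83305704-83306645, minus strand), read 370.4, 360.2 and 369 CPM at 180 min and 268, 260.0 and 263 CPM at 540 min (log2 -0.50 ± 0.07 SE, adjusted p = 9.8e-08). Neither gene overlapped between the times. Atf4 itself moved little (579.8, 489.6 and 419 CPM at 180 min and 426, 477 and 415 CPM at 540 min, log2 -0.19 ± 0.07 SE, adjusted p = 0.0414), with overlap. Trib3, a pseudokinase target of ATF4, fell by 0.57, Slc7a1, a transporter of cationic amino acids, by 0.40, and Asns, asparagine synthetase, by 0.29 on the log2 scale. Without replicate 2 or 3 the list had 7 falls, and without replicate 1 Atf4 did not pass (adjusted p = 0.699). ATF4 and its partners are known to bind an amino acid response element, and 3 members that fell and hold the searched letters TGATGNAA (either strand) are shown (RefSeq, GRCm38.p6, 5′ to 3′ on the gene's strand, motif in capitals).
Asns, chr6:7693210-7693247, minus strand: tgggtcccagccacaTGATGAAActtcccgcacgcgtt
Trib3, chr2:152344024-152344061, minus strand: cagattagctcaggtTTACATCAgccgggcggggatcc
Slc7a11, chr3:50443657-50443694, minus strand: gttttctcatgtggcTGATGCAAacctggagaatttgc
The motif was in 4 of the 10 members that fell and have a promoter window (40.0%), in 5 of 16 other members (31.2%) and in 1219 of 27025 promoters (4.51%).

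Targets of p53 gave 1 rose and 5 fell of 20 tested, with a median of -0.32. Bbc3 (PUMA) fell by 0.98 and Sesn2, a sensor of leucine, by 0.85 on the log2 scale, Cdkn1a, the inhibitor p21, read 303, 232 and 382 CPM at 180 min and 252, 190.3 and 312 CPM at 540 min (log2 -0.31 ± 0.07 SE, adjusted p = 0.000861) with overlap between times, and Bax, an effector of apoptosis, rose (log2 0.46 ± 0.15 SE, adjusted p = 0.0267). Of 50 histone genes, 0 rose and 11 fell. H2ac23 had the most reads, 5497, 5219 and 4647 CPM at 180 min and 3912, 4406 and 3796 CPM at 540 min (log2 -0.37 ± 0.05 SE, adjusted p = 1.37e-07), but 99.9% of them mapped to more than one place, so the near-identical histone copies cannot be told apart. H3f3b, a replacement histone that most of its reads identify uniquely, fell by 0.42 on the log2 scale. Without replicate 1 the histone falls numbered 7 and without replicate 2 they numbered 6, the p53 list had 3 falls without replicate 2, and Bax did not pass without replicate 3 (adjusted p = 0.412).

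Of 15 hypoxia genes, 3 rose and 0 fell (median 0.19), beside 8.5 and 8.21% over all genes, and of 20 glycolysis genes, 3 rose and 3 fell. Bnip3, a mitophagy receptor (chr7:138890836-138891914, minus strand), read 59.6, 51.1 and 53.8 CPM at 180 min and 133, 147 and 91.7 CPM at 540 min (log2 1.13 ± 0.10 SE, adjusted p = 1.99e-12), and Slc2a1, the glucose transporter GLUT1, read 51.5, 54.7 and 55.8 CPM at 180 min and 85.8, 85.3 and 78.5 CPM at 540 min (log2 0.60 ± 0.10 SE, adjusted p = 2.66e-05). Neither gene overlapped between times. The hypoxia targets Egln3 and Ndrg1 rose as well (log2 0.28 ± 0.09 SE, adjusted p = 0.0171; log2 0.52 ± 0.18 SE, adjusted p = 0.0315). Within glycolysis, Pfkl and Pfkp, forms of phosphofructokinase, rose with Slc2a1, while the transporters Slc2a3 and Slc16a1 and the kinase Pgk1 fell. Without replicate 1 or 2 only Bnip3 of the hypoxia list passed, and without replicate 2 or 3 the glycolysis list had 1 fall.

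Genes of the progenitor state shifted by small amounts. Of 23 tested, 5 rose (21.7%) and 2 fell (8.70%), beside 8.5 and 8.21% of all genes. The share of falls was near that of all genes. Myb, a transcription factor of blood progenitors, read 687, 636 and 736 CPM at 180 min and 852, 796 and 903 CPM at 540 min (log2 0.28 ± 0.06 SE, adjusted p = 0.000291), and Cebpa, of the granulocyte and monocyte lineage, read 165, 141 and 237 CPM at 180 min and 205, 181 and 293 CPM at 540 min (log2 0.30 ± 0.07 SE, adjusted p = 0.0026). Cebpa overlapped between times and rose within each pair, and the same held for Flt3, a receptor tyrosine kinase, at 21, 14 and 76.3 CPM at 180 min and 43.2, 16.5 and 93.3 CPM at 540 min. Hoxa9, one of the transforming genes, read 4097, 3626 and 4414 CPM at 180 min and 3377, 3459 and 4399 CPM at 540 min and fell by 0.14 on the log2 scale. Whether these reads are of the viral copy is not known. Gata2, of stem cells and mast cells, fell by 0.39. Mcpt8, a marker of basophils, fell with Gata2, and the summed mast cell and basophil markers lay between 96.2 and 178 CPM at 180 min and between 83.0 and 173 CPM at 540 min. The part of such cells in these changes was not tested. Without replicate 1 the list had 3 rises, Flt3 did not pass (adjusted p = 0.328), nor did Hoxa9 (adjusted p = 0.40).

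By size alone, the 10 largest rises and 10 largest falls that went the same way in all pairs were mostly of rare RNA. The rises were led by Slc9a3r2, a scaffold of membrane transporters, at 0.61, 0.61 and 0.564 CPM at 180 min and 3.97, 8.05 and 1.96 CPM at 540 min (log2 2.80 ± 0.62 SE, adjusted p = 0.000859), Tifab at 20.5, 1.83 and 0.752 CPM at 180 min and 55.8, 4.03 and 8.55 CPM at 540 min and Ttc21b, of cilia, at 3.87, 4.88 and 5.64 CPM at 180 min and 11.7, 15.2 and 15.8 CPM at 540 min. Tifab was high only in replicate 1, and Slc9a3r2 did not pass without replicate 2 (adjusted p = 0.0877). The others were Bhlha15, Fry, Lrrc75a, Mettl15, Ddr1, Cep131 and Prmt2, with log2 changes from 1.48 to 1.92 and at most 10.1 CPM at 540 min. The falls were Jun and Cirbp with Npb, Scd1, Lhfpl2, H2bc13, Nlrp3, Serpinb2, Arl15 and Hao1, the last 8 at most 8.43 CPM at 180 min. Of these calls, many depended on single replicates. Fry, Mettl15 and H2bc13 did not pass whichever replicate was left out, with adjusted p up to 0.172, 0.269 and 0.245 over the alternatives. Of the others, Bhlha15, Lrrc75a, Ddr1, Prmt2, Npb, Nlrp3, Serpinb2 and Hao1 did not pass without replicate 1, Cep131, Prmt2, Npb, Lhfpl2 and Serpinb2 without replicate 2, and Lrrc75a and Ddr1 without replicate 3. Scd1, stearoyl-CoA desaturase, went from 5.93 to 1.49 CPM.

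**Figure D5:**
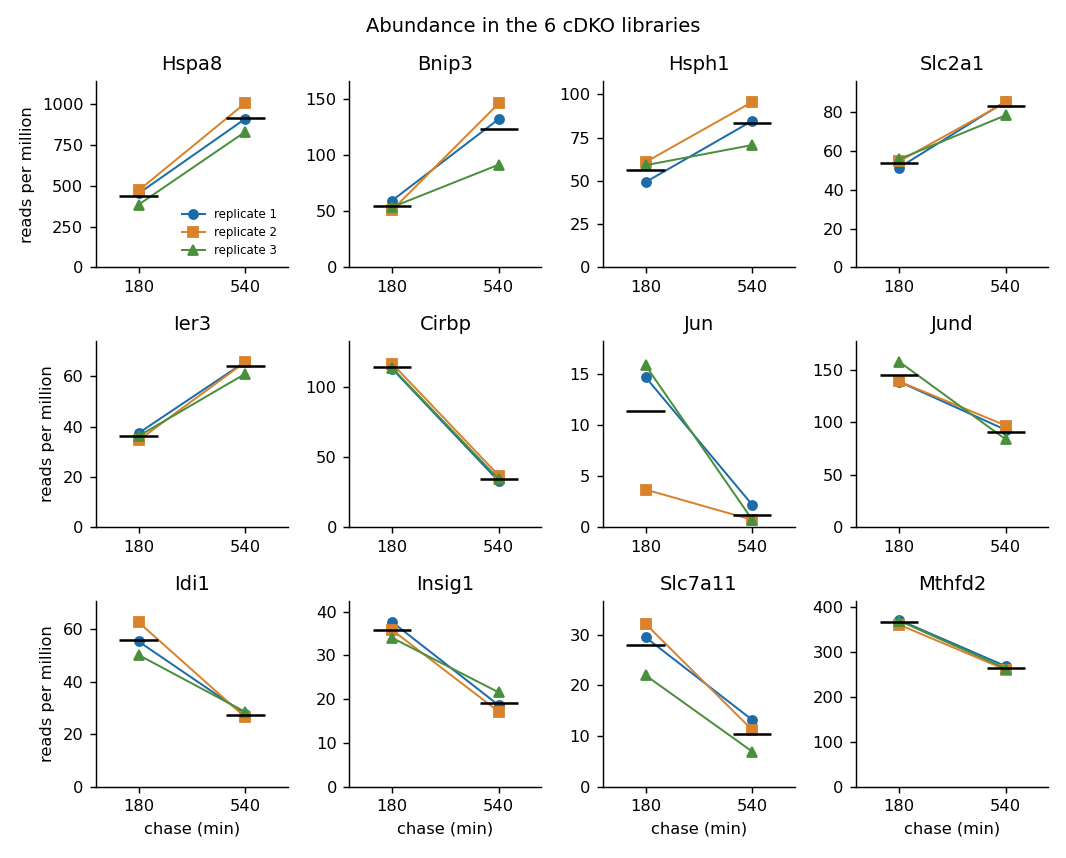
Read abundance (CPM, linear axis) in each of the 6 cDKO libraries at 180 and 540 min for 12 genes, with same-numbered replicates joined and a horizontal bar at the mean. Hspa8, Bnip3, Hsph1, Slc2a1 and Ier3 are higher in every library of 540 min, and Cirbp, Jun, Jund, Idi1, Insig1, Slc7a11 and Mthfd2 lower in every one.

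Genes that rose and genes that fell in reads lost label to much the same degree. Of the 866 genes that rose, 496 could be tested for label and changed by a median of -2.23 on the log2 scale, with 49 slower and 210 faster than the library. Of the 837 that fell, 633 could be tested, with a median of -2.09 and 56 slower and 274 faster. The genes not called had a median of -1.98. Hspa8 is an example of the first: its reads rose 2.07-fold while its rate went from 0.448, 0.604 and 0.378% to 0.0576, 0.0465 and 0.0525%. Its labelled RNA, rate times level, was left at 22.9% of the 180 min amount. Mthfd2 is one of the second, with fewer reads, 20.8% of the rate kept and 14.7% of the labelled amount left. Rplp1, with neither change called, kept 102% of its labelled amount.

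Against the control cells over the same interval, the cDKO libraries lost less label. The log2 change of the library-wide rate was -1.41 in cDKO cells and -1.78 in control cells, a difference of 0.37 (exact permutation test, two-sided p = 0.1, the smallest possible). Across the 4927 genes tested in both, the median difference was 0.50, 147 genes (2.98%) lost less in cDKO cells and 0 lost more, with 994 at an unadjusted p under 0.05. The cDKO cells began the interval at 0.502% and the control cells at 1.078%, and when the library-wide rate was put in the offset, 15 genes lost less (0.304%) and 11 more (0.223%). Leaving out cDKO replicate 3, the library of lowest label, gave 19 genes that lost less, leaving out control replicates 1 or 2 gave 66 or 63, leaving out cDKO replicate 2 gave 83, and a fit without the replicate block gave 30.

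In label, Mcm6, Cdk6, Hspa5 and Spcs2 were among the 5 genes with the smallest adjusted p for the difference between genotypes. Mcm6, of the replicative helicase, read 0.76, 0.735 and 0.491% at 180 min and 0.211, 0.207 and 0.106% at 540 min in cDKO cells and kept 26%, while control cells kept 6.68% (difference log2 1.97 ± 0.26 SE, adjusted p = 1.64e-05). It passed with the library-wide rate in the offset as well, by 1.62 on the log2 scale (adjusted p = 0.000534). Cdk6, a kinase of G1, kept 21.7% against 12%, Hspa5 28.5% against 13.7%, and Spcs2, of the signal peptidase, 45.3% against 27.1%. With that offset the adjusted p was 0.0499 for Cdk6, 0.019 for Hspa5 and 0.209 for Spcs2. Of the genes whose label did not fall, Eea1 kept 116% in cDKO cells and 16.4% in control cells (difference log2 2.98 ± 0.80 SE, adjusted p = 0.0292), a difference that did not pass without cDKO replicate 1 or 3 or control replicate 1 or 2 (adjusted p up to 0.20) or with the library-wide rate in the offset (adjusted p = 0.159). Ugt1a6b kept 119.6% against 21.9% (difference log2 2.48 ± 0.51 SE, adjusted p = 0.00404). It passed with that offset (adjusted p = 0.0474) but not without cDKO replicate 3 (adjusted p = 0.0621), and the other 7 Ugt1a genes, which share 1 value, had a difference of 2.40 on the log2 scale (adjusted p = 0.00404).

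In abundance, 23 of 10626 genes (0.216%) changed more upward in cDKO than in control cells and 29 (0.273%) more downward, with 1197 at an unadjusted p under 0.05. Without the replicate block none passed (605 at an unadjusted p under 0.05), and leaving out cDKO replicate 2 left 10 and 12, cDKO replicate 3 left 5 and 8, control replicate 1 left 8 and 9, and control replicate 3 left 15 and 17. Cdkn1a, whose values in cDKO cells are given above, went from 514 ± 25.6 to 273 ± 24.4 CPM in control cells (difference log2 0.66 ± 0.09 SE, adjusted p = 4.78e-05). Jun fell in cDKO cells, and control cells read 6.23 ± 1.68 CPM at 180 min and 6.53 ± 0.515 CPM at 540 min (difference log2 -3.27 ± 0.58 SE, adjusted p = 0.00269, and 0.101 without cDKO replicate 3). Vmp1, of autophagy and the endoplasmic reticulum, read 421, 362 and 534 CPM at 180 min and 347, 286 and 393 CPM at 540 min in cDKO cells against means of 275 ± 18.5 and 395 ± 33.1 CPM (difference log2 -0.85 ± 0.09 SE, adjusted p = 1.98e-06). Ccl3, Xbp1, a factor of the unfolded protein response, and Ctsg had differences of -1.53, -0.47 and 0.34. Markers of other cell types also differed in level between the cultures. At 180 min Hbb-bt, a beta globin, stood at 1632 CPM in cDKO and 0.904 CPM in control libraries, Gata2 at 99.8 and 6.51 CPM, and Adgre1, a surface receptor of macrophages and eosinophils, at 220.1 and 19.9 CPM. In a short set of 4 macrophage markers, Csf1r, Mrc1 and C1qa each averaged under 2 CPM in the 6 libraries. So did all but Hbb-bt in a short set of 6 erythroid markers. In longer lists, 3 of 10 macrophage and 3 of 13 erythroid genes had enough reads in cDKO cells to be tested. The part of those cell types in the differences between genotypes was not tested.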

How the data were processed

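Per the file headers, SlamDunk 0.4.3 made one table per library, with a line for each 3′UTR interval of the mouse genome (GRCm38, mm10 intervals). The authors deposited whole-number counts of reads, covered T positions and conversions, a fraction (the conversion rate of each interval) and a CPM column, which the authors' tool scaled to reads of the library. The CPM column served only to recover the filtered reads of each library, and the fraction column was not used. Here counts were summed per gene over 29021 kept intervals (20867 genes), with an interval listed under several transcripts taken once. CPM were recomputed from each library's total of these reads, and TMM sizes entered only the edgeR fits of reads. RNA had been alkylated and sequenced as 3′-end libraries after 16 PCR cycles, without molecular identifiers. 

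Reads and conversions were tested with edgeR 4.0.16 in R 4.3.3 (quasi-likelihood test, Benjamini-Hochberg at 0.05), reads after filterByExpr, conversions with log covered T positions as offset in genes with 1000 covered positions in each library and 50 conversions at 180 min. All adjusted p-values in the text are from these fits. Replicate number was a block: the study calls the replicates biological, and same-numbered libraries of 180 and 540 min deviated together (correlations of deviations from the group means over 8418 genes 0.413, 0.770 and 0.776, other pairs -0.0692 to -0.711), so the pairing is read from the data as well as the titles. Nothing in the labels says that same-numbered libraries share a culture. DESeq2 1.42.0, other filters, other references and left-out replicates were tried as alternatives, and scripts were tested on simulated data.

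Members and gene lists were chosen with earlier results of these data known, and a gene symbol and a name pattern in the lists were corrected after the files had been read. The text names the 10 largest called rises and falls with 1 direction in all pairs, genes with no label loss (up to 20), the 10 called most and 10 least label losses relative to the library, the 5 smallest adjusted p in each comparison of genotypes, and the members of each list with most reads or a call. Other names are said to have been chosen after their values were seen, which holds also for Hbb-bt and Adgre1 and for the genes whose windows are shown. Promoter windows are from RefSeq (GRCm38.p6). Only sequence 250 bases before to 50 after a start was searched. A gene and a promoter window that these rules would have named are not reported here.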

Additional observations from a re-analysis of the deposited data

Results flagged for a closer look

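In 9 genes the change from 180 to 540 min differed between cDKO and control cells by a test of the difference itself, all among the 5 with the smallest adjusted p in each measure (edgeR's quasi-likelihood test). In abundance the cDKO minus control difference was -0.852 for Vmp1, -1.526 for Ccl3, a macrophage inflammatory chemokine, 0.656 for Cdkn1a, -0.466 for Xbp1 and 0.344 for Ctsg on the log2 scale. In label it was 1.974 for Mcm6, 0.858 for Cdk6, 1.069 for Hspa5 and 0.74 for Spcs2. The label differences stand beside a median of 0.50 over all 4927 genes and a difference of 0.37 between the libraries as a whole.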

How the results depend on the processing

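The counts of abundance calls depended most on the replicate block. Without the replicate block 6 genes rose and 5 fell, none differed in abundance change between genotypes (0 higher, 0 lower in cDKO), and 30 lost less label in cDKO cells. All 1703 genes kept their direction without it, but balanced pairs make that nearly certain in advance, so it is no check of the calls. Calls of label lower, slower and faster stayed within 1.5 times. With DESeq2, 264 genes rose, 336 fell and 1096 lost label faster than the library, and with all 12 cDKO libraries in the fit 315 rose and 438 fell. Leaving out 1 replicate gave 427 to 659 rises, 419 to 742 falls, 5 to 32 genes changing more upward and 8 to 29 more downward in cDKO cells, 19 to 147 losing less label there, and 33 to 63 genes with no fitted label loss. The cause of these shifts was not tested. At 5000 covered T positions 1713 genes had lower label, with a median of -1.857, and 9 had no fitted loss, against 167 at 100 positions, where different numbers of genes were tested. With the background rate subtracted the median was -2.32, and the difference between genotypes 0.34. The median of the gene rates changed by -2.15. With the median gene as reference 1344 were slower and 553 faster, and the relative change turned to 0.223 for Ms4a3, 0.322 for Hspa5, 0.207 for Mcm6, 0.704 for Asns, 0.159 for Myb and 0.187 for Malat1. With the library-wide rate in the offset, 15 genes lost less and 11 more in cDKO cells, with a median difference of 0.132. At 180 min the genes called lower had a median of 148 conversions and those not called 86.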

Other observations

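Further gene groups moved little. Of 17 interferon genes tested in cDKO cells, 2 rose (11.8%, near the 8.5% of all genes) and 0 fell. Those 2 were the guanylate-binding proteins Gbp7, at 194, 176 and 242 CPM at 180 min and 229, 223 and 276 CPM at 540 min (log2 0.23 ± 0.07 SE, adjusted p = 0.0211), and Gbp3, at 3.46, 0.814 and 4.89 CPM at 180 min and 5.78, 1.93 and 13.2 CPM at 540 min (log2 1.12 ± 0.40 SE, adjusted p = 0.0477). Both overlapped between the times and were higher in each pair, and neither passed without replicate 2 or without replicate 3. Of 260 zinc finger genes of the Zfp series, 5 rose (1.92%) and 11 fell (4.23%), both below the 8.5 and 8.21% of all genes. Without replicate 2 the falls numbered 4. Of 24 tested for label, 2 were slower (8.33%) and 8 faster (33.3%) than the library, near the 12.4 and 34.9% of all genes. Of 16 noncoding and small RNA host genes, 0 rose and 4 fell. Malat1, a long nuclear RNA, read 2959, 2629 and 2865 CPM at 180 min and 2532, 2125 and 2492 CPM at 540 min (log2 -0.27 ± 0.05 SE, adjusted p = 8.21e-05), without overlap, and kept 25.9% of its conversion rate. Snhg6 and Snhg3, hosts of small nucleolar RNAs, fell by 0.78 and 0.27 on the log2 scale, as did Rn7s2, a copy of the 7SL RNA of which 99% of reads mapped to more than one place, by 0.73.

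Of 15 genes tested that make or take up uridine, Dhodh, which makes the pyrimidine precursor orotate, rose (44.8, 32.7 and 35.7 CPM at 180 min and 54.9, 50.8 and 47.5 CPM at 540 min, log2 0.42 ± 0.12 SE, adjusted p = 0.0132), and Uck2, the main uridine-cytidine kinase of salvage, fell (163, 142 and 173 CPM at 180 min and 130.2, 130.1 and 129 CPM at 540 min, log2 -0.32 ± 0.08 SE, adjusted p = 0.0043). Neither overlapped between the times, and the list had 0 rises without replicate 2 and 0 falls without replicate 3. The 1 rise and 1 fall were each 6.67% of the list, near the 8.5 and 8.21% of all genes. The nucleoside diphosphate kinases Nme1 and Nme2 kept 79.4 and 65.8% of their rate, both slower than the library.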
